A study of Mus musculus with 4 samples.

Results

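Nonclassical monocytes were examined in single-cell RNA sequencing of MC38 tumors as 367 of 31143 barcodes with more than 500 genes. Members were chosen by their unique molecular identifier (UMI) counts: at least 2 UMIs of Adgre4, Ace and Ear2 together, at least 1 of Lyz2, at most 1 of Ly6c2, at most 1 of C1qa, C1qb and C1qc together, and 0 of Cd3d, Cd3e, Cd3g, Cd209a and Hmga2. The tumors arose from MC38, a mouse colon cancer line, implanted in young adult, immunocompetent C57BL/6 mice. The tumor cells carried the small GTPase RAC1 as wild type (WT) or as the A159V form, which had been knocked in at the endogenous gene with CRISPR-Cas9, and the A159V cells came from 1 clone. The monocytes came from the host and were not edited. The mice were given either a PD1-blocking antibody (anti-PD1), which targets a checkpoint receptor of T cells, or an isotype IgG. This gave 4 groups of 1 library each, and values are given throughout in the order WT IgG then WT anti-PD1 for the WT tumors, followed by A159V IgG then A159V anti-PD1. CD45+ and CD45− cells had been separated with beads and remixed before loading, so shares of all barcodes do not give cell shares of the tumor. How many mice a library held was not given in the sources used here.

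Nonclassical, or patrolling, monocytes are blood monocytes with little Ly6C that adhere to and crawl along the inner wall of vessels, where they survey the endothelium and clear debris. In the mouse they arise largely from classical Ly6C-high monocytes, depend on the nuclear receptor NR4A1, and carry high levels of the fractalkine receptor CX3CR1 and the integrin LFA-1. Classical monocytes in contrast use CCR2 to leave the blood and turn into inflammatory monocytes and macrophages in tissue.

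The gate held 80, 107, 76 and 104 members. They had medians of 3037.5, 11412, 2115.5 and 2655 UMIs per barcode, so members of WT anti-PD1 were the deepest. The libraries had 54402632 to 125227747 UMIs over 7430 to 9311 barcodes, of which 432 to 590 per library were left out for having too few genes. Between 13 and 22 barcode sequences were shared by each pair of libraries, and none of these was a member. The comparison cells were 2485 classical monocytes (at least 3 Ly6c2 UMIs) and 1356 C1q macrophages (at least 10 C1q UMIs), both with Lyz2, with at most 1 UMI of the 3 gate genes and without UMIs of the same 5 excluded genes.

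The 3 genes that chose the members did not carry the gate equally. Adgre4, an adhesion receptor of the EGF-TM7 family, lies at chr17:55749984-55853662 (GRCm38, plus strand) and was detected in 73.8%, 14.0%, 64.5% and 72.1% of members. Ace, the angiotensin-converting enzyme, lies at chr11:105967945-105989964 on the plus strand and was detected in 65.0%, 67.3%, 53.9% and 62.5%. Ear2, an eosinophil-associated ribonuclease whose counts are uncertain because close family copies share reads, lies at chr14:44102654-44103534 on the plus strand and was detected in 61.3%, 40.2%, 61.8% and 50%. WT anti-PD1 was thus low in Adgre4 while it was like the other libraries in Ace. Ace was the only 1 of the 3 genes in 8, 59, 8 and 10 members.

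Ace was also found outside monocytes. It was detected in 37.6%, 54.2%, 45.1% and 69.3% of stromal cells (at least 20 collagen UMIs, no Ptprc) at median depths of 16628, 13430, 8154 and 11416 UMIs, and in 64.9% of the endothelial cells of WT anti-PD1. In T cells, which should lack all 3 genes, Ace was detected in at most 2.05%, Adgre4 in at most 1.43% and Ear2 in at most 0.798%, at median depths of 2699 to 4277 UMIs. In stromal cells Adgre4 was detected in at most 0.363% and Ear2 in at most 0.617%. Of the 3 gate genes, Ace was therefore the one shared with stromal and endothelial cells.

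The WT anti-PD1 library went against the label. Ptprc, the pan-leukocyte gene that encodes CD45, was detected in 95%, 50.5%, 92.1% and 94.2% of members. At least 20 UMIs of Col1a1, Col1a2 and Col3a1 were found in 7, 56, 5 and 8 members, that is 8.75%, 52.3%, 6.58% and 7.69%. These few barcodes were deep and held 34.7%, 67.4%, 20.1% and 30.6% of all member UMIs. Of the 56 in WT anti-PD1, 52 had Ace as their only gate gene and 0 had an Adgre4 UMI. The summed level of 12 stromal genes was 12799, 72790, 13178 and 23986 UMIs per 1000000 UMIs of the gate (CPM) in members against 112, 1691, 1243 and 365 CPM in classical monocytes. In members none of the 12 was at 0 in any library, and in each library the sum was above that in classical monocytes.

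**Figure D1:**
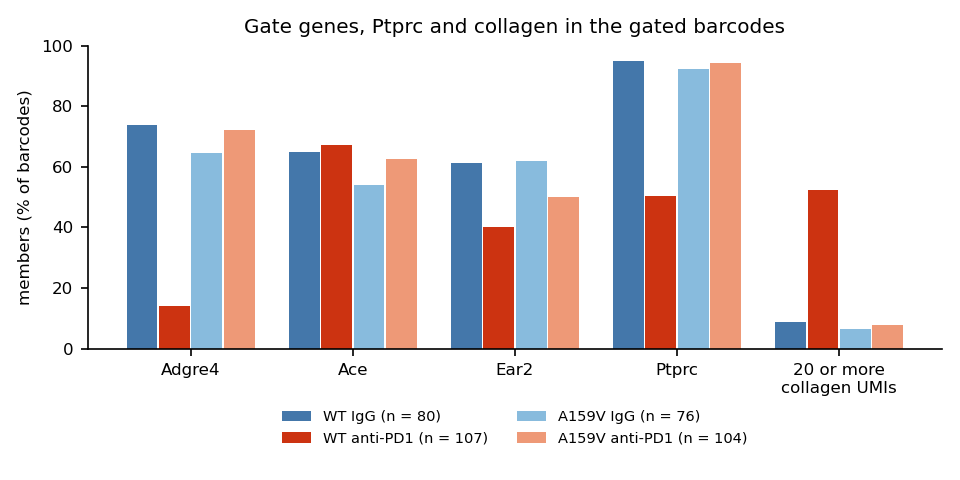
Percent of gated barcodes in each library with at least 1 UMI of Adgre4, Ace, Ear2 and Ptprc and with at least 20 UMIs of 3 collagen genes. Bars are shares of 80, 107, 76 and 104 barcodes. WT anti-PD1 had Adgre4 in 14.0% and collagen in 52.3%, while the other 3 libraries had Adgre4 in 64.5% to 73.8% and collagen in 6.58% to 8.75%.

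Each member was also compared with the summed profiles of cell gates in the other 3 libraries, over genes that no gate used, and given to the profile under which its counts were most likely. The monocyte and macrophage profiles were summed over cells without UMIs of other lineages (0 UMIs of Cd79a, Ms4a1, Ncr1, Col1a1, Col3a1, Cdh5 and Ly6g), a choice made after seeing the data. In this description 58, 17, 43 and 75 members were most like nonclassical monocytes. In WT anti-PD1, 61 were most like stromal cells, 22 most like C1q macrophages and 5 most like dendritic cells. The 22 macrophage-like barcodes all had Ear2, 19 had the mannose receptor gene Mrc1, 15 had Arg1 and 0 had Adgre4. The 17 barcodes of WT anti-PD1 that were most like nonclassical monocytes all had Ptprc, and 13 had Adgre4.

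In the other 3 libraries together, 176 of 260 members (67.7%) were most like nonclassical monocytes and 46 (17.7%) most like classical monocytes. The 3 members of WT IgG and the 4 of A159V IgG that were most like tumor cells held 22.5% and 39.2% of the member UMIs of their libraries. The 6 of WT IgG that were most like dendritic cells held 21.7%. By the same comparison 1961 of 2382 classical monocytes (82.3%) and 798 of 863 C1q macrophages (92.5%) were most like their own gate. Another 253 of the classical monocytes (10.6%) were most like nonclassical monocytes, which is more barcodes than the 176 members. In WT anti-PD1 it was 22 of 103 classical monocytes. The nonclassical profile therefore also took many cells outside the gate. With profiles summed over all barcodes of each gate, those with collagen UMIs included, 2 of the 260 members were most like nonclassical monocytes and 218 most like classical monocytes. The nonclassical profile was summed over the same gate, so likeness to it shows that the gate repeated and does not settle the label. By the profiles without UMIs of other lineages, most members of WT IgG, A159V IgG and A159V anti-PD1 were most like this gate. Most members of WT anti-PD1 were not.

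**Figure D2:**
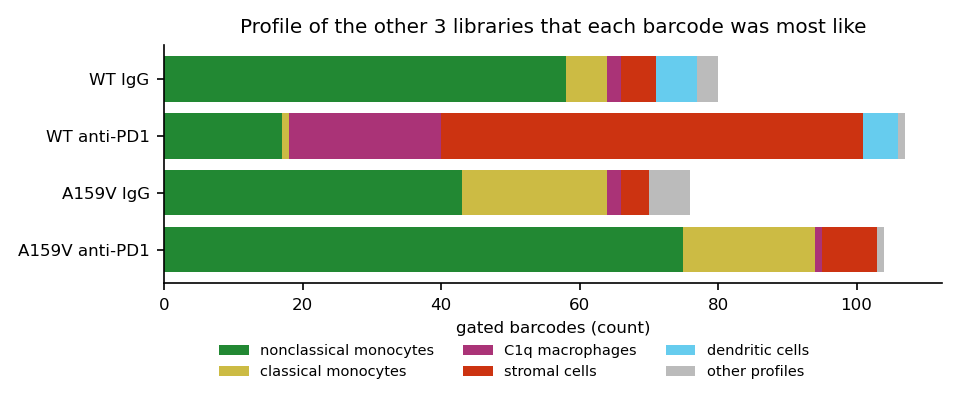
Number of gated barcodes of each library (bars, count on the horizontal axis) by the cell profile of the other 3 libraries they were most like. Nonclassical monocytes took 58, 17, 43 and 75 barcodes, and stromal cells took 61 of the 107 of WT anti-PD1.

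For this reason gene values are given below mainly for members without UMIs of other lineages, with those over all members where named. The members without such UMIs numbered 57, 11, 66 and 85. They held 188166, 52480, 162091 and 241747 UMIs, with medians of 2921, 3548, 1875 and 2559 per barcode. The deepest of them alone gave 12.4%, 25.4%, 19% and 3.21% of these UMIs. Where a count was 0, these depths allow up to 15.9, 57.2, 18.5 and 12.4 CPM. Col1a1, which the filter uses, was also detected in 3.75%, 53.0%, 4.67% and 6.89% of T cells. In WT anti-PD1 a collagen UMI alone therefore does not mark a stromal cell. The filter left 722, 19, 641 and 750 classical monocytes and 242, 70, 215 and 262 C1q macrophages. In WT anti-PD1 these were 19 of 103, with 97151 UMIs, and 70 of 493.

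The threshold itself was close to many barcodes. Members at exactly 2 UMIs of the 3 genes numbered 32, 32, 35 and 37, and barcodes that met every other condition with 1 UMI numbered 62, 51, 75 and 96. Pglyrp1, a peptidoglycan-binding protein gene that the rule did not use, reached 34.9, 3.30, 45.9 and 84.9 CPM at 2 UMIs and 15.9, 3.58, 14.7 and 15.8 CPM at 1 UMI. For this gene barcodes just inside the threshold were above those just outside it in the libraries other than WT anti-PD1. Other genes did not all follow, since Nr4a1 was at 439 CPM inside and 599 CPM outside the threshold in WT IgG, and Cx3cr1 at 55.8 and 75.3 CPM. Cells with at least 2 UMIs of the 3 genes but also at least 2 of Ly6c2 lay on the other side of the Ly6c2 limit and numbered 83, 12, 50 and 83. Their Pglyrp1 level was 50.4, 8.46, 62.2 and 51.6 CPM and their Ccr2 level 375, 778, 335 and 565 CPM.

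As shares of Lyz2-positive barcodes without UMIs of Cd3d, Cd3e, Cd3g and Hmga2, members made up 3.19% (80 of 2507, exact binomial 95% interval 2.54% to 3.96%) in WT IgG and 5.48% (107 of 1953, 4.51% to 6.58%) in WT anti-PD1. They made up 3.18% (76 of 2392, 2.51% to 3.96%) in A159V IgG and 3.33% (104 of 3125, 2.73% to 4.02%) in A159V anti-PD1. WT anti-PD1 lay above the other 3, whose intervals overlapped. With 1 library per group there was no test between conditions, and here and below intervals between libraries are at 95% and cover counting error only.

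The fold of the share was 0.996 (0.731 to 1.36) for A159V IgG relative to WT IgG. It was 1.05 (0.783 to 1.40) for A159V anti-PD1 relative to A159V IgG. The interval of both folds included 1 under every alternative gate and denominator that was computed. For WT anti-PD1 over WT IgG the fold was 1.72 (1.29 to 2.28), and it moved with the gate. It was 1.34 (0.711 to 2.53) for members without UMIs of other lineages. It was 0.326 (0.186 to 0.573) for members with an Adgre4 UMI, which were 0.768% against 2.35% of the same barcodes. It was 0.364 (0.213 to 0.621) when at least 2 of the 3 genes were required and 0.667 (0.412 to 1.08) when barcodes were thinned to 1500 UMIs, the last with an interval that included 1. Members with an Adgre4 UMI were 2.35%, 0.768%, 2.05% and 2.40%, so WT anti-PD1 was then the lowest library and not the highest.

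**Figure D3:**
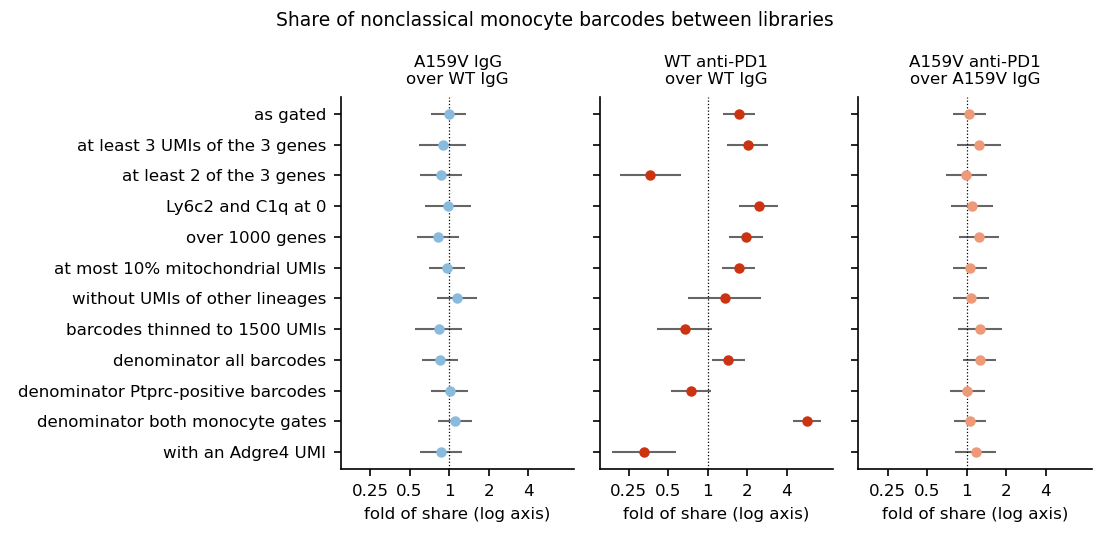
Fold of the share of nonclassical monocyte barcodes between libraries (horizontal log axis, points with 95% counting intervals) under each gate or denominator (rows). The folds for the A159V form and for anti-PD1 in A159V tumors stayed between 0.817 and 1.26, while WT anti-PD1 over WT IgG ran from 0.326 to 5.69.

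To ask how these cells differed from classical monocytes in the same tumors, UMIs were summed per library and gate and compared with edgeR's quasi-likelihood test with library as a block, so that each library gave 1 pair. The 4 libraries differ in condition and were treated as replicates of the difference between cell types. The p-values measure the spread between these 4 libraries. The gates separate cells by RNA, so genes that travel with gate genes were bound to differ to some extent. Among all members, 1113 of 8594 genes (13% of those tested) were higher than in classical monocytes and 1142 (13.3%) were lower at a Benjamini-Hochberg adjusted p under 0.05. The 12 genes with the highest fold included the matrix and stromal genes Fbln1, Cilp, Nox4, Mmp3, Ror1 and Sfrp1, and 11 of 11 stromal markers tested were higher, with a median log2 fold of 5.05.

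Without UMIs of other lineages, 359 of 3554 genes (10.1%) were higher and 314 (8.84%) lower. Of 3552 genes tested in both fits, 68 were called higher and 261 lower in both, and 3 were called higher over all members but lower here. Without the WT anti-PD1 library as well, 539 of 7643 genes (7.05%) were higher and 712 (9.32%) lower. The median log2 fold of all genes was near 0 in each fit, at 0.05, 0.03 and 0.01. Gene values below are of cells without UMIs of other lineages unless stated. For the list counts against classical monocytes below, the shares over all genes in these cells were 10.1% higher and 8.84% lower.

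Genes of patrolling monocytes that the gate did not use were higher as a group. Of 22 listed, 19 could be tested, of which 16 were higher and 0 lower, with a median log2 fold of 1.98. Over all members 9 of 20 were higher and 2 lower (median 0.73), and without WT anti-PD1 18 of 22 were higher and 0 lower (median 2.21). The list was chosen with earlier results of these data known, so these counts describe the members and do not test the label.

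Pglyrp1 (chr7:18871331-18890459, plus strand), whose product binds bacterial peptidoglycan, was at 122, 76.2, 86.4 and 169.6 CPM in nonclassical and at 14.5, 0, 18.2 and 8.17 CPM in classical monocytes. All 4 nonclassical values lay above all 4 classical ones, with a log2 fold of 3.28 (SE 0.371, adjusted p = 4.27e-04). Ceacam1 (chr7:25461707-25477603, minus strand), a cell adhesion receptor, was at 90.3, 57.2, 80.2 and 145 CPM against 14.8, 10.3, 11.6 and 14.5 CPM, a log2 fold of 2.89 (SE 0.260, adjusted p = 1.50e-04). Treml4, a receptor of the TREM family on chr17:48264295-48275360 (plus strand), was at 112, 76.2, 204 and 141 CPM against 19.3, 20.6, 24.2 and 13.7 CPM, a log2 fold of 2.90 (SE 0.256, adjusted p = 1.44e-04). The 3 genes were thus higher in every library, but WT anti-PD1 rested on few counts. There Pglyrp1 had 4 UMIs against 0, Ceacam1 3 against 1 and Treml4 4 against 2.

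The highest folds were in genes for ion transport, metabolism and the cell surface. Slc12a2, the Na-K-Cl cotransporter gene, was at 47.8, 114, 61.7 and 91.0 CPM against 2.76, 0, 1.10 and 2.23 CPM and had a log2 fold of 4.90 (SE 0.381, adjusted p = 5.56e-05). Eno3, a glycolytic enolase best known from muscle, was at 53.1, 95.3, 49.4 and 70.3 CPM against 1.72, 0, 4.40 and 1.11 CPM and had a log2 fold of 4.67 (SE 0.447, adjusted p = 1.84e-04). Spn (chr7:127132232-127137823, minus strand), which encodes CD43, a sialoglycoprotein used to sort nonclassical monocytes, was at 149, 191, 142 and 132 CPM against 7.59, 0, 7.16 and 10.8 CPM and had a log2 fold of 4.02 (SE 0.286, adjusted p = 5.56e-05). For these 3 genes too, no nonclassical value fell to the classical range. In WT anti-PD1 this rested on few counts, with 6, 5 and 10 UMIs in nonclassical monocytes against 0 in classical ones. Eno3 did not pass the filter on low counts over all members, while Slc12a2 and Spn were higher there too, at 3.2 and 2.51.

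The promoters of Eno3, Spn and Pglyrp1, 3 of the 4 genes with the highest folds, are shown so that their letters can be set beside their shared rise, a choice made after the values were seen. Each runs from 250 bases before to 50 after the RefSeq start (GRCm38.p6) and is written 5′ to 3′ on the strand of the gene. Capitals mark CACCC, the letters bound by KLF factors, and GGAAGT, a core bound by ETS factors, on either strand. Eno3 held 2 CACCC matches, Spn 4 and 1 GGAAGT match, and Pglyrp1 1 CACCC match. No match overlapped another. The NR4A letters AAAGGTCA were found in none of the 3. Of 32851 promoters of this length in the table, 57.5% held CACCC, 23.8% GGAAGT and 1.51% AAAGGTCA, so CACCC matches are common in any promoter.
Eno3, chr11:70656926-70657225, plus strand: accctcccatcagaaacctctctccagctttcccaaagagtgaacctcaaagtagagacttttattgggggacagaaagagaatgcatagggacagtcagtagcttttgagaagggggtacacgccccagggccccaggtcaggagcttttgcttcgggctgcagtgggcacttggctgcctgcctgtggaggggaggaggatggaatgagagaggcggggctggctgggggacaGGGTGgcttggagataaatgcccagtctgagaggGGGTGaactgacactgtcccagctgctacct
Spn, chr7:127137774-127138073, minus strand: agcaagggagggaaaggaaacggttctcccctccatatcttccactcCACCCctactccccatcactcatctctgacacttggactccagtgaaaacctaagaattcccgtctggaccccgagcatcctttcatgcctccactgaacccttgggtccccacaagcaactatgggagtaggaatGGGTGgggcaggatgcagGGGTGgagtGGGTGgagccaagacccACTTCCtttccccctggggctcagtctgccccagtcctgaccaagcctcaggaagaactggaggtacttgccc
Pglyrp1, chr7:18884440-18884739, plus strand: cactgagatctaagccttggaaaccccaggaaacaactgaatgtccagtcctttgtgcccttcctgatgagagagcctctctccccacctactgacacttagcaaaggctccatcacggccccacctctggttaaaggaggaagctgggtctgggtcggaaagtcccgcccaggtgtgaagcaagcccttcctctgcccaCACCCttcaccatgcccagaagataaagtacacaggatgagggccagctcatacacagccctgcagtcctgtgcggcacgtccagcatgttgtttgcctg

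Genes for adhesion and crawling divided by receptor. Itgal, which encodes the alpha chain of LFA-1, was at 585, 1067, 376 and 815 CPM against 105, 51.5, 111 and 117 CPM, a log2 fold of 2.55 (SE 0.299, adjusted p = 5.03e-04). Cx3cr1, the fractalkine receptor gene, was at 149, 343, 92.5 and 207 CPM against 48.3, 82.3, 36.9 and 33.8 CPM, a log2 fold of 1.90 (SE 0.259, adjusted p = 0.00111). Neither was called over all members, where their folds were 0.73 and 0.73. Itga4 and Itgb1, the 2 chains of the integrin VLA-4, were higher, at a log2 fold of 1.58 and 1.18, of which Itga4 was not called over all members (0.19). Ccr2, the receptor that brings classical monocytes out of the blood, was at 367, 553, 253 and 455 CPM against 532, 896, 481 and 739 CPM, a log2 fold of −0.77 (SE 0.191, adjusted p = 0.0217). It was lower in each of the 4 libraries. Of 19 adhesion and trafficking genes tested, 6 were higher and 4 lower, against 2 and 9 over all members.

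Among transcription factors, 4 of 18 were higher and 1 lower, against 10.1% and 8.84% of all genes. Nr4a1, on which these cells depend, was at 1058, 762, 839 and 959.7 CPM in nonclassical and 544, 422, 402 and 449 CPM in classical monocytes. Its level was higher in each library, with a log2 fold of 0.94 (SE 0.185, adjusted p = 0.00751). Over all members it was −0.35 and not called. Pou2f2, which encodes OCT2, was at 419.8, 534, 383 and 418 CPM against 115, 82.3, 122 and 85.4 CPM, a log2 fold of 1.98 (SE 0.209, adjusted p = 2.71e-04). Hes1, a repressor downstream of Notch, was at 345, 305, 167 and 186 CPM against 116, 20.6, 72.7 and 26.4 CPM, a log2 fold of 1.91 (SE 0.304, adjusted p = 0.00273). Klf2, a factor of quiescent and circulating leukocytes, was higher, at a log2 fold of 1.29 (adjusted p = 0.00466). Over all members Pou2f2 and Klf2 were not called (0.50 and 0.61).

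Of 11 survival genes 2 were higher and 2 lower, few genes to set beside the 10.1% higher and 8.84% lower over all genes. Bcl2, the founding anti-apoptotic gene, was at 170.1, 324, 98.7 and 199 CPM against 23.5, 20.6, 23.1 and 21.2 CPM, a log2 fold of 2.82 (SE 0.265, adjusted p = 1.82e-04). Csf1r, the receptor whose signal maintains nonclassical monocytes, was at 287, 267, 284 and 401 CPM against 176, 216, 135 and 187 CPM, a log2 fold of 0.82 (SE 0.205, adjusted p = 0.0226). Mcl1, another anti-apoptotic gene, was lower, at a log2 fold of −0.60 and Bcl2l11, which encodes the pro-apoptotic BIM, at −1.13. Bcl2 and Csf1r were not called over all members (0.78 and −0.56).

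Fcgr4, an activating Fc receptor for IgG that marks nonclassical monocytes in blood, did not differ beyond the spread between libraries. It was at 202, 57.2, 185 and 269 CPM against 214, 237, 191 and 228 CPM, with a log2 fold of −0.18 (SE 0.264, adjusted p = 0.663). The 3 of 5 Fc receptor genes that were lower were Fcer1g, the shared signaling chain, at −0.96, the high-affinity receptor Fcgr1 at −1.96 and the inhibitory Fcgr2b at −1.01.

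**Figure D4:**
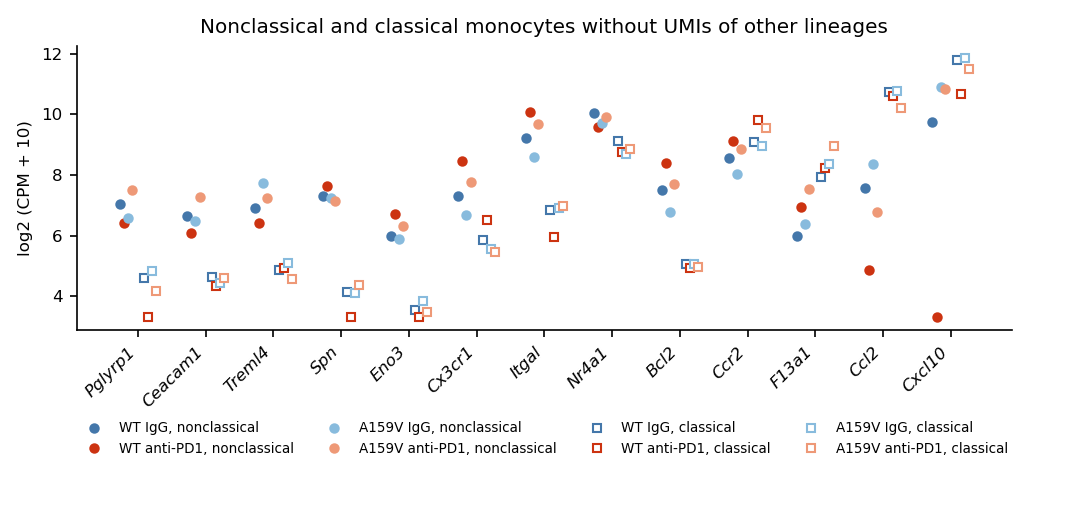
Level of 13 genes in nonclassical (filled circles) and classical monocytes (open squares) without UMIs of other lineages, as log2(CPM + 10) on the vertical axis with 1 point per library. For Pglyrp1, Ceacam1, Treml4, Spn, Eno3, Cx3cr1, Itgal, Nr4a1 and Bcl2 all 4 nonclassical points lie above all 4 classical points, and Ccl2 and F13a1 lie lower.

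Genes of classical monocytes outside the gate were lower in 9 of 17 and higher in 1 (median log2 fold −0.98), and 13 lower and 1 higher without WT anti-PD1. F13a1, the coagulation factor XIII A chain, was at 53.1, 114, 74.0 and 174 CPM against 236, 288, 319.8 and 491 CPM, a log2 fold of −1.83 (SE 0.233, adjusted p = 8.34e-04). Cd14, the co-receptor for lipopolysaccharide, was lower, at a log2 fold of −1.58 and Thbs1, which encodes thrombospondin-1, at −2.24. The gene that was higher was Gda, a guanine deaminase, at 0.75 (0.13 and not called over all members). Fn1, which encodes fibronectin and is abundant in stroma, was 1.70 over all members and −0.98 without UMIs of other lineages, and called in both directions.

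Cytokine and chemokine genes were lower in 14 of 22 and higher in 0 (median −1.61) and 23 of 27 lower without WT anti-PD1. The monocyte-attracting chemokines stood out. Ccl2 was at 181, 19.1, 321 and 99.3 CPM against 1685, 1565, 1718 and 1178 CPM, a log2 fold of −3.38 (SE 0.367, adjusted p = 3.41e-04). Ccl7 was lower, at a log2 fold of −3.93 and Ccl12 at −4.85. Cxcl10, which attracts CXCR3-bearing T cells, was at 845, 0, 1913 and 1828 CPM against 3503, 1616, 3668 and 2847 CPM, a log2 fold of −1.77 (SE 0.550, adjusted p = 0.0482). Ccl5, which attracts T cells and monocytes, was lower, at a log2 fold of −2.01 and Il1rn, the interleukin-1 receptor antagonist, at −2.03. Every one of these 6 genes was lower over all members and without WT anti-PD1 too.

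Genes of the type I interferon response were lower in 11 of 21 and higher in 0 (median −1.02), and lower in 19 of 21 without WT anti-PD1. Isg15, a ubiquitin-like modifier, was at 781, 38.1, 1024 and 629 CPM against 2759.6, 731, 2865 and 2113 CPM, a log2 fold of −1.98 (SE 0.298, adjusted p = 0.00194). Irf7, the factor that amplifies the response, was at 303, 133, 635 and 319 CPM against 1045, 339.7, 948 and 694 CPM, a log2 fold of −1.23 (SE 0.246, adjusted p = 0.00834). Bst2, which encodes tetherin, was lower, at a log2 fold of −1.14 (adjusted p = 0.0143), though over all members it was not called (−0.77). Of 17 interferon gamma response genes, 4 were lower and 0 higher.

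Glycolysis and hypoxia genes were lower in 11 of 14 and higher in 0 (median −1.08). Pgk1, which encodes phosphoglycerate kinase, was at 170.1, 209.6, 358 and 186 CPM against 431, 731, 419 and 469 CPM, a log2 fold of −1.16 (SE 0.269, adjusted p = 0.0167). Gapdh and Pkm, both of the glycolytic pathway, were lower, at a log2 fold of −1.13 and −1.31. Over all members 14 of 15 of these genes were lower. For antigen presentation, 1 of 8 class II genes (Ctss, −0.78) and 1 of 11 class I genes (H2-T23, −0.78) were lower and 0 higher, shares near the 8.84% of all genes that were lower. Over all members 8 of 9 class II and 8 of 13 class I genes were lower.

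The remaining lists are set beside 8.84% lower and 10.1% higher over all genes. Macrophage genes were lower in 8 of 14 and scavenging and lipid handling genes in 5 of 11. Checkpoint and costimulatory ligands were lower in 3 of 13, pattern recognition genes in 3 of 14 and immediate early genes in 3 of 14. Each of the last 4 had 1 gene higher, and the macrophage list had 0. The genes higher were Cd36, the fatty acid translocase, at 3.0, Havcr2, which encodes TIM-3, at 0.62, Pglyrp1 and the heat shock gene Hspa1b at 1.17. Havcr2 and Hspa1b were not called over all members (−0.64 and −0.06). Cell cycle genes were called in neither direction, with 3 of 16 tested, whereas 6 of 15 were higher over all members. Other genes among the 12 highest were Pparg, a lipid-sensing nuclear receptor (3.04), the adhesion receptor gene Adgrl3 (3.15), Ldlrad3 (2.98), Tiam2, an exchange factor for RAC1 (2.94), and Pot1b (2.90). Among the 12 lowest were Arg1, which encodes arginase (−4.07), the anaphylatoxin receptor C3ar1 (−3.31) and the prostaglandin synthase Ptgs2 (−2.91).

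To set the same cells against macrophages of the tumors, they were compared with C1q macrophages in the same way. Over all members 926 of 9389 genes (9.86%) were higher and 713 (7.59%) lower. Without UMIs of other lineages 599 of 5210 (11.5%) were higher and 602 (11.6%) lower. Without WT anti-PD1 as well, 943 of 6452 (14.6%) were higher and 805 (12.5%) lower. Over all members the highest folds were again in stromal genes such as Mmp3, Cpxm1 and Cxcl12, and 11 of 11 stromal markers were higher.

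Patrolling genes were higher in 14 of 22 and lower in 1 (median 2.25), and over all members in 8 and 2 of 20. Pglyrp1 was at 0, 0, 1.26 and 1.37 CPM in C1q macrophages, well under its level in nonclassical monocytes, with a log2 fold of 7.06 (SE 0.514, adjusted p = 3.02e-06). Hpgd, which degrades prostaglandins, was at 128, 133, 30.8 and 103 CPM in nonclassical monocytes against 0, 4.58, 2.52 and 0.685 CPM, a log2 fold of 6.01 (SE 0.631, adjusted p = 4.27e-05). Treml4 was higher, at a log2 fold of 4.67, Itgal at 4.40, Napsa, an aspartic protease, at 3.92 and Nr4a1 at 2.53. The 1 gene that was lower was Fcgr4, at −0.96, and all 6 Fc receptor genes were lower. Hes1 was higher, at a log2 fold of 4.36, at 26.6, 2.29, 8.81 and 6.17 CPM in C1q macrophages.

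Several genes of classical monocytes were shared. Of 16 tested, 8 were higher than in C1q macrophages and 4 lower. Hp, which encodes haptoglobin, was at 154, 57.2, 179 and 273 CPM against 2.88, 2.29, 0 and 4.11 CPM, a log2 fold of 6.05 (SE 0.430, adjusted p = 2.78e-06). Plac8 was higher, at a log2 fold of 3.85, Chil3, a chitinase-like protein gene, at 4.22 and Ccr2 at 1.67. Cd14 and F13a1 were lower in nonclassical monocytes than in either other cell type, at −0.90 and −1.79 here.

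Macrophage genes were lower in 19 of 19 (median −3.26). Apoe, a lipid carrier, was at 585, 114, 642 and 550.2 CPM against 3845, 6508, 5232 and 3162 CPM, a log2 fold of −3.26 (SE 0.393, adjusted p = 1.13e-04). Mrc1 was lower, at a log2 fold of −4.06, Ctsl, a lysosomal cathepsin, at −3.86, Mertk, which takes up dying cells, at −5.66 and Arg1 at −5.92. Of 15 scavenging and lipid handling genes 11 were lower and 1 higher, and Fabp5, a fatty acid binding protein gene, was lower, at a log2 fold of −3.32. Cytokine genes were lower in 13 of 22 and higher in 2, with Ccl7 at −6.38 and Ccl12 at −6.23. In the type I interferon list 6 of 21 genes were higher, among them Ifi27l2a at 0.67 and Slfn5 at 1.08, and 1 (Bst2, −1.01) was lower. Without WT anti-PD1 15 of these 21 were higher and 2 lower, and over all members 2 were higher and 0 lower (median 0.03 against 0.01 for all genes). Over all members Ccr2, Nr4a1, Ifi27l2a and Bst2 were not called against C1q macrophages (0.64, 1.42, 0.35 and −0.37). The number of interferon genes called against C1q macrophages thus depended on which members were summed, while more were higher than lower each time.

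**Figure D5:**
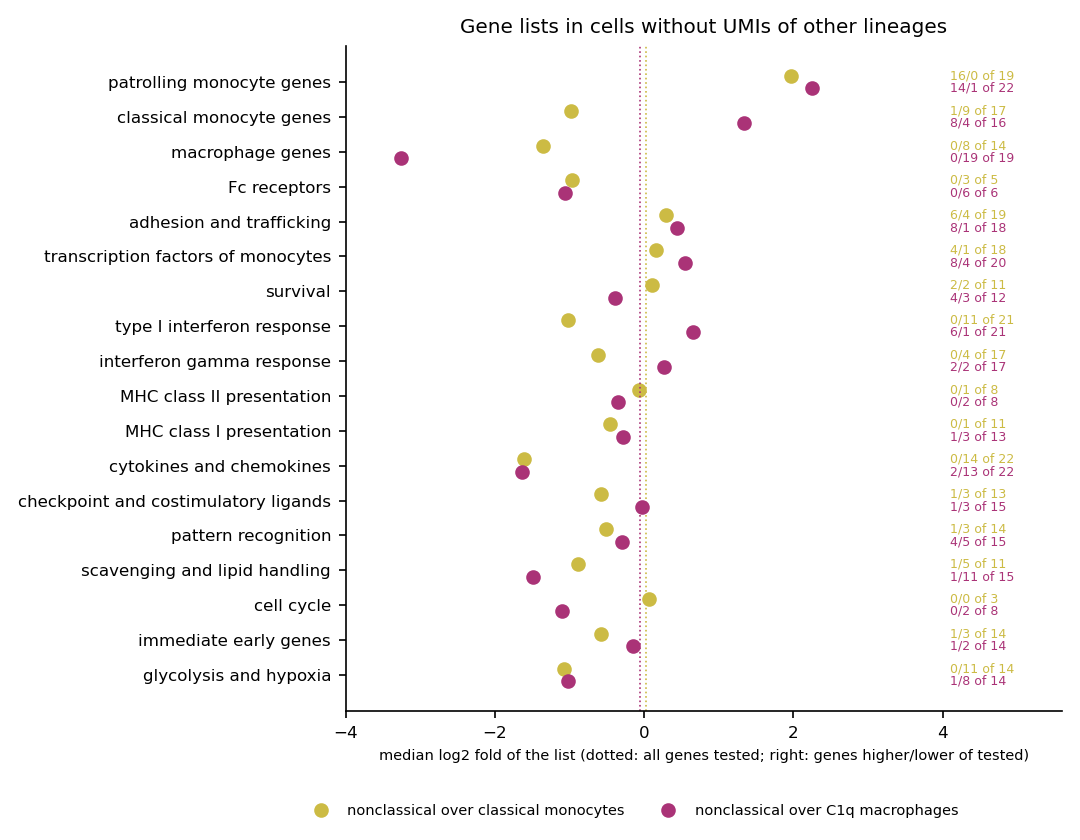
Median log2 fold of each gene list for nonclassical over classical monocytes and over C1q macrophages (points), in cells without UMIs of other lineages. Dotted lines give the median of all genes tested (0.03 and −0.05), and the text at right counts the genes higher and lower of those tested. Patrolling genes had medians of 1.98 and 2.25, and cytokine genes −1.61 and −1.63.

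The levels between conditions were compared in members without UMIs of other lineages, with 1 library per group and no test. A gene is called past the fold here when its log2 ratio of CPM + 10 was at least 1 or at most −1. Genes entered with at least 20 UMIs and 50 CPM in either library. A gene with few UMIs in 1 library could thus enter only through the library where it was high. WT IgG is shared by 2 comparisons and A159V IgG by 2, so these are not independent of each other.

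For A159V IgG over WT IgG, 102 of 2003 genes (5.09%) were past the fold upward and 96 (4.79%) downward, and 56 and 45 without the deepest members. Of 20 genes of the type I interferon response, 7 were past it upward and 0 downward, with a list median of 0.43 against −0.09 for all genes. Irf7 was at 635 CPM (95% interval, 519 to 771) in A159V IgG and 303 CPM (229 to 392) in WT IgG, a log2 ratio of 1.04. Usp18, which restrains interferon signaling, was at 253 CPM (182 to 343) against 95.7 CPM (56.7 to 151), a log2 ratio of 1.32. It had 41 UMIs against 18, so it entered only through A159V IgG. Ifit1, an RNA-binding effector, was found in 30 of 66 cells with 69 UMIs against 12 of 57 cells with 33 UMIs, a log2 ratio of 1.23. The counting intervals of Irf7 and of Usp18 did not overlap between the libraries. Leaving out the deepest member of each library left 6 of 20 past the fold upward and a list median of 0.55.

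Of 15 cytokine and chemokine genes 5 were past the fold upward and 0 downward (median 0.45). Cxcl10 was at 1913 CPM (1706 to 2138) against 845 CPM (719 to 987), a log2 ratio of 1.17. Ccl4 was at 1968 CPM (1758 to 2196) against 861 CPM (733 to 1004), a log2 ratio of 1.18 and Ccl5 at 426 CPM (331 to 539) against 79.7 CPM (44.6 to 131), a log2 ratio of 2.28. These ratios were 1.43, 1.30 and 2.59 without the deepest members. The class II invariant chain gene Cd74 was at 746 CPM (619 to 892) against 1477 CPM (1309 to 1662), a log2 ratio of −0.98, and the class II gene H2-Ab1 had a log2 ratio of −1.14. Of 7 class II genes 1 was past the fold downward and 0 upward (median −0.76), and 0 without the deepest members (median −0.64). Over all members, 6 in WT IgG and 0 in A159V IgG were most like dendritic cells. The 6 had a median of 17304 UMIs, whereas the deepest compared member of WT IgG had 23370 and the next 8229. Not all of the 6 were thus among the members compared, and the part of any that were in the class II values was not tested. Hpgd and Pparg were among the 8 lowest, with log2 ratios of −1.75 and −1.77. Il12b was seen with 25 UMIs in A159V IgG and 0 in WT IgG, but 24 of the 25 came from 1 cell. Of 11 glycolysis and hypoxia genes 4 were past the fold upward (median 0.77), but without the deepest members 1 of 9 was (median −0.18).

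For A159V anti-PD1 over A159V IgG, 118 of 2358 genes (5% of those compared) were past the fold upward and 106 (4.5%) downward, and 76 and 26 without the deepest members. In the type I interferon list 0 of 20 were past it upward and 3 downward (median −0.33 against 0.14 for all genes). Bst2 was at 261 CPM (200.3 to 333) in A159V anti-PD1 and 1159.8 CPM (1000 to 1338) in A159V IgG, a log2 ratio of −2.11. Irf7 was at 319 CPM (251 to 398), a log2 ratio of −0.97. Without the deepest members 5 of 20 were past it downward (median −0.57). Gbp2, an interferon-induced GTPase, was at 521 CPM (434 to 621) against 216 CPM (150.4 to 300.3), a log2 ratio of 1.23. Of 18 patrolling genes 3 were past the fold upward, namely Itgal (1.09), Cx3cr1 (1.08) and Hpgd (1.47), and without the deepest members 1, Hpgd (1.28). Cx3cr1 and Hpgd had fewer than 20 UMIs in A159V IgG and entered only through A159V anti-PD1, Hpgd with 25 UMIs against 5. A159V anti-PD1 held 241747 UMIs against 162091, so 20 UMIs stood for a lower level in it. Cxcl9 reached 32 UMIs against 0, of which 19 came from 1 cell.

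For WT anti-PD1 over WT IgG, only 11 cells stood on the anti-PD1 side, and the deepest of them held 25.4% of their UMIs. Of 1840 genes 123 (6.68%) were past the fold upward and 361 (19.6%) downward, and 99 and 316 without the deepest members. A gene entered with at least 20 UMIs and 50 CPM in either library. WT IgG held 188166 UMIs against 52480 and 20 UMIs stood for a lower level in it, so the counts by direction support nothing by themselves. The type I interferon list was past the fold downward in 15 of 17 genes and upward in 0 (median −2.75 against −0.19 for all genes), and Ifi27l2a alone among them had 20 UMIs or more in WT anti-PD1. Isg15 was at 38.1 CPM (4.62 to 138) in WT anti-PD1 and 781 CPM (660.0 to 918) in WT IgG. Of 7 class II genes 4 were past the fold upward, with Cd74 at 6650.1 CPM (5971 to 7386) against 1477 CPM (1309 to 1662). Of 3 dendritic cell genes compared, Naaa (126 UMIs against 22) and Flt3 (23 against 0, of which 17 were in 1 cell) were past the fold upward and Tcf4 (2 against 40) downward. Cadm1 and Wdfy4, both among the 8 highest ratios, had 39 UMIs against 3 and 117 against 25. The part of dendritic cells in the class II values was not tested. Of 15 patrolling genes Cx3cr1 (1.15) was past the fold upward and Fcgr4 (−1.66) downward. Both had few UMIs in WT anti-PD1, at 18 and 3, and the counting intervals of both overlapped between the libraries. For Cx3cr1 they were 203 to 542 against 98.9 to 215 CPM, and for Fcgr4 11.8 to 167 against 143 to 277 CPM. Itgal was at 1067 CPM (806 to 1386) against 585 CPM (480.5 to 705), whose intervals do not overlap, a log2 ratio of 0.86. Spn was at 191 CPM (91.4 to 350.4) against 149 CPM (98.9 to 215) and Pglyrp1 was at 76.2 CPM (20.8 to 195) against 122 CPM (77.5 to 183), whose intervals overlap.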

How the data were processed

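Single-cell libraries of 4 MC38 tumor groups had been made with 10x 3′ chemistry, and the deposited matrices hold raw UMI counts of 32285 genes, which the authors made with Cell Ranger against mm10, introns included. The submitters' processing notes name version 5.0.1 and the file header 7.2.0. Counts preceded the authors' removal of ambient RNA and doublets, and no doublet caller was run here. The members and gene lists were chosen with earlier results of these data known. Barcodes with over 500 genes were gated by UMIs, and 3 list genes were not found. UMIs summed per library and gate were tested with edgeR 4.0.16 (R 4.3.3, quasi-likelihood, TMM, filterByExpr, library as block, Benjamini-Hochberg), with gate genes left out, and DESeq2 1.42.0 was an alternative. The block pairs cell types of the same tumors. Scripts were tested on simulated data. Other values used Python 3.11.15 (numpy 2.4.6, scipy 1.17.1, pandas 2.3.3, matplotlib 3.10.9). Levels are CPM (exact Poisson intervals), with 10 CPM added for log2 ratios between libraries.

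Named genes were up to 6 per list that passed the test, by level, the 12 highest and 12 lowest folds between cell types at 50 CPM or more, and the 8 highest and 8 lowest log2 ratios between libraries at 50 CPM and 20 UMIs or more. Cx3cr1, F13a1, Fn1 and Cd14 (against C1q macrophages), the list genes named between conditions and the genes plotted were chosen after their values were seen, as were 6 of the processing alternatives, which the closing section gives. A few genes are not reported here.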

Additional observations from a re-analysis of the deposited data

Results flagged for a closer look

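The share of nonclassical monocyte barcodes with an Adgre4 UMI had anti-PD1 folds on either side of 1, of which the WT fold alone lay beyond counting error. It was 0.326 times the WT IgG share in WT anti-PD1 and 1.17 times the A159V IgG share in A159V anti-PD1. With 1 library per group the difference between the 2 effects was not tested, and the 95% counting intervals were 0.186 to 0.573 and 0.821 to 1.67. The Lyz2-positive barcodes that the shares were taken over differed between libraries. Those without UMIs of other lineages were 305 of 1953 in WT anti-PD1 and 2119 of 2507 in WT IgG. The part of this difference in the WT fold was not tested.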

How the results depend on the processing

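With 1 library per group no condition effect had a test, and WT anti-PD1 gave 11 members without UMIs of other lineages, which limits every value from it. The fold of the member share in WT anti-PD1 over WT IgG was 1.72. It was 2.44 with Ly6c2 and C1q at 0 and 5.69 with both monocyte gates as the denominator. It was 1.34 (0.711 to 2.53) without UMIs of other lineages, 0.667 (0.412 to 1.08) after thinning to 1500 UMIs and 0.743 (0.526 to 1.05) over Ptprc-positive barcodes, each with 1 inside its interval. It was below 1 at 0.364 with at least 2 of the 3 genes and 0.326 with an Adgre4 UMI. The other 2 folds stayed within counting error of their values under every alternative run.

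Against classical monocytes, 1113 genes were higher and 1142 lower over all members. Without a filter on low counts 1756 were higher, and with an Adgre4 UMI 361 were higher and 551 lower. Without UMIs of other lineages 359 were higher and 314 lower, and without WT anti-PD1 as well 539 and 712. Against C1q macrophages (926 higher, 713 lower) there were 1718 and 1145 without the filter, 599 higher without UMIs of other lineages and 402 higher with an Adgre4 UMI. Without the library block that pairs the gates, 870 genes were higher and 668 lower than in classical monocytes, and 793 and 551 against C1q macrophages. Leaving out each library in turn gave 647 to 1021 higher and 507 to 1279 lower against classical monocytes, and 607 to 911 higher and 425 to 691 lower against C1q macrophages, each lowest without WT IgG. DESeq2 called 969 and 1066 against classical monocytes and 920 and 691 against C1q macrophages.

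Between libraries, the counts of genes past the fold over all members were 88 upward and 224 downward for A159V IgG over WT IgG, 711 and 719 for WT anti-PD1 over WT IgG, and 355 and 414 for A159V anti-PD1 over A159V IgG. For A159V IgG over WT IgG, 96 were downward without UMIs of other lineages, 138 and 420 with at least 3 UMIs of the 3 genes, and 56 and 45 without the deepest members too. For WT anti-PD1 over WT IgG, they were 123 and 361 without UMIs of other lineages, 373 upward with an Adgre4 UMI, and 99 and 316 without the deepest members. For A159V anti-PD1 over A159V IgG, they were 118 and 106, and 76 and 26.

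Of 912 values of 76 gene comparisons under these alternatives, 796 kept direction and call, 50 lost the call, 48 gained it and 18 turned. Over all members Nr4a1, Csf1r, Havcr2 and Hspa1b were not called against classical monocytes and lay below 0. They were 0.94, 0.82, 0.62 and 1.17 without UMIs of other lineages, 0.91, 0.84, 0.55 and 1.40 without WT anti-PD1 as well, and 0.77, 0.67, 0.45 and 0.82 with an Adgre4 UMI. Fn1, higher over all members, was −0.98, −0.88 and −0.73 in the same 3 settings. Leaving out each library in turn gave −0.71 to 0.12 for Nr4a1 and −0.63 to 0.68 for Hspa1b, both highest without WT anti-PD1, and −0.17 to 0.57 for Itga4. The cause was not tested.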
